A study of Arabidopsis thaliana with 27 samples.

Results

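The effect of the rdr6-15 mutation on transcript levels was compared between inflorescence and rosette leaf of Arabidopsis thaliana. The comparison uses 12 of the series' 27 arrays, 3 from each of 4 groups: rdr6-15 inflorescence, the Col-0 inflorescence arrays that the labels name as the control of dcl4-2 and rdr6-15 (set A), rdr6-15 leaf and Col-0 leaf. Inflorescence material is labelled as stages 1 to 12 and leaf material as rosette leaves 5 to 8. The organ difference of a probe set is its rdr6-15 minus Col-0 difference in inflorescence minus the same difference in leaf, so a negative value means a lower rdr6-15 effect in inflorescence than in leaf. All values are on the log2 scale of the RMA expression summaries, on which a difference of 1 is 2-fold. The other groups are dcl4-2 and dcl1-7 in both organs and a further Col-0 inflorescence control, labelled as that of dcl1-7 (set B). The labels give no plant age. In bulk samples such as these, fewer cells of a type and less RNA per cell cannot be told apart.

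RDR6 is an RNA-dependent RNA polymerase that copies cleaved transcripts into double-stranded RNA, which DCL4 dices into phased small RNAs. Among these are the trans-acting siRNAs, which are set off by microRNA-guided cleavage and repress other transcripts, including auxin response factors and pentatricopeptide repeat genes. In Arabidopsis the pathway is known for its role in the timing of the change between juvenile and adult leaves and in leaf polarity.

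Correlations between arrays of a group lay between 0.996 and 0.998 in the 2 inflorescence groups and between 0.984 and 0.992 in the 2 leaf groups. The median residual SD was 0.122 over the inflorescence arrays and 0.172 over the leaf arrays of the series, so a leaf effect was measured with more error. The control transcripts' signal, 3′ probes minus 5′ probes on average, a sign of RNA quality, was 0.723 to 0.857 in rdr6-15 inflorescence, against 0.94 to 1.00 in set A, and these groups did not overlap. It was 2.59 to 3.03 in rdr6-15 leaf, against 2.62 to 3.44 in Col-0 leaf. The part of this measure in the results was not tested, and between organs it cannot be told apart from organ. Set A and set B, both Col-0 inflorescence, differed at 9676 of 22746 probe sets (42.5%). Called genes under the naming rule have the set B organ difference where the call ended, sign turned or value moved over 1.5 times. The third set B array stood apart, with a 3′ minus 5′ signal of 2.59, against 0.947 and 0.84 on the other 2 and correlations of 0.987 to 0.988 with them, and without it sets A and B differed at 9085 probe sets (39.9%). The second dcl4-2 inflorescence array stood apart likewise, with 2.36, against 0.913 and 0.86 on the other 2, and so did the third dcl1-7 inflorescence array with 2.48. These 3 arrays enter the estimate of the spread but not the organ difference, and without them 353 probe sets were called higher and 502 lower, among them all 45 named genes that were called with them. The mean level over 5 anther and tapetum genes was 6.86 to 7.40 in rdr6-15 inflorescence and 7.24 to 7.39 in set A, against 5.72 to 5.93 in rdr6-15 leaf and 5.86 to 6.03 in Col-0 leaf, which sets the organs apart as labelled. The mutated gene RDR6 is not analysed here, so the genotype labels were not checked by it.

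The organ difference was called, at an adjusted p under 0.05 from limma over all 22746 probe sets, for 205 probe sets higher (0.901%) and 353 lower (1.55%), together 2.45%. At an unadjusted p under 0.05 there were 3052. Leaving out 1 of the 12 arrays gave 239 to 374 lower and 108 to 244 higher calls, with 108 to 135 higher without the first or second rdr6-15 inflorescence array, any 1 of the set A arrays, the second rdr6-15 leaf array or the first Col-0 leaf array. Of the lower probe sets 225 differed by at least 2-fold, and of the higher ones 35. These calls lay mostly in inflorescence. Of the 353 lower probe sets, 331 were also called lower in rdr6-15 than in set A in inflorescence (3.29% of all probe sets were, and 5.51% were called either way). A further 4 were called in leaf alone, 18 in neither organ and 0 in both organs, and 238 of the 353 had estimates of opposite sign. Their median rdr6-15 effect was -1.12 in inflorescence and 0.074 in leaf. Of the 205 higher probe sets, 150 were called higher in inflorescence (2.22% of all), 5 in leaf alone, 50 in neither and 0 in both. In 192 of the 205 the estimates in the 2 organs had opposite signs. Their median effect was 0.50 in inflorescence and -0.22 in leaf. The organ difference contains both effects, so these counts describe where it lies and are no separate test. In leaf itself 16 probe sets were called (0.0703%), 9 higher (0.0396%) and 7 lower (0.0308%), and 1461 had an unadjusted p under 0.05. Across all probe sets the inflorescence and leaf effects had a Pearson r of -0.011 and a Spearman rho of -0.057, a description over probe sets that share arrays.

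**Figure D1:**
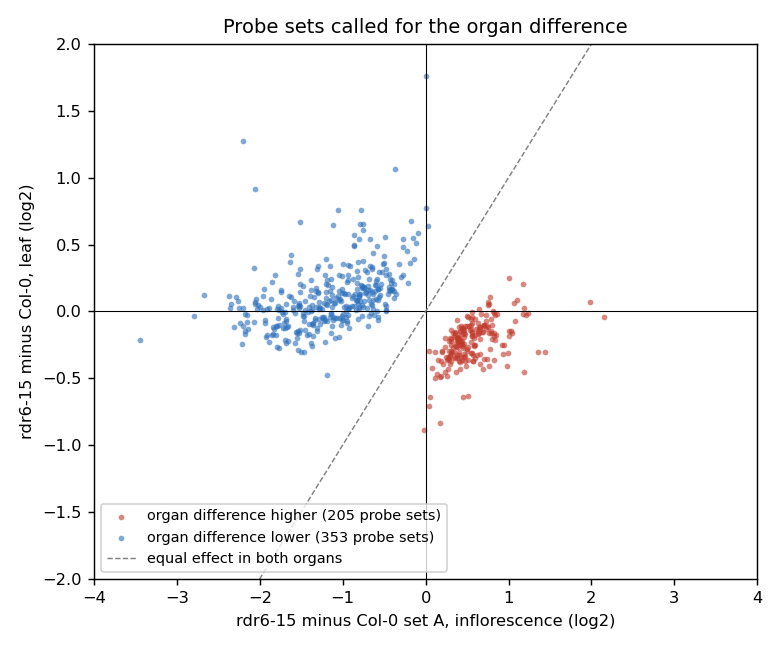
The rdr6-15 minus Col-0 difference in inflorescence (x axis, log2) is plotted against that in leaf (y axis, log2) for the probe sets called for the organ difference. The 353 lower probe sets (blue) spread to the left with leaf values around 0, and the 205 higher ones (red) lie to the right, mostly with leaf values below 0.

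Levels on the dcl4-2 arrays, which enter the estimate of the spread but not the contrast itself, describe the called probe sets. A large fall in inflorescence can be called only where a transcript lies well above the lowest values there. The shares below are therefore a description and no separate test. Of the 353 lower probe sets, 168 (47.6%) were at least 4-fold higher in dcl4-2 inflorescence than in dcl4-2 leaf, against 3.53% of all probe sets. Of the 205 higher ones, 7 (3.41%) were. Without the second dcl4-2 inflorescence array, 167 (47.3%) and 7 (3.41%) were, against 3.61% of all. Among the lowest 25% of dcl4-2 leaf levels were 112 of the 353 lower probe sets (31.7%) and 13.7% of the higher ones. Where a transcript is near the lowest values of the array in leaf, a fall in leaf could not have been seen.

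Several transcripts known from pollen were called lower. RALFL25, a RALF-like peptide, had 6.37, 6.33 and 6.91 in rdr6-15 inflorescence, against 8.78, 8.76 and 8.92 in set A. In leaf it had 5.49, 5.23 and 4.97 in rdr6-15, against 5.14, 5.22 and 5.00 in Col-0. The inflorescence groups lay well apart while the leaf groups overlapped at a low level, and the organ difference was -2.39 (SE 0.37, limma adjusted p = 0.000666).

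AT59, a pectate lyase of pollen, had 6.06, 6.21 and 6.84 in rdr6-15 inflorescence, against 8.50, 8.46 and 8.74 in set A. Its leaf values were 5.38, 5.56 and 5.46 in rdr6-15, against 5.26, 5.49 and 5.57 in Col-0. The organ difference was -2.22 (SE 0.33, adjusted p = 0.000476). PLIM2a, a pollen LIM-domain protein that bundles actin, had 6.90, 7.01 and 7.44 in rdr6-15 inflorescence, against 8.84, 9.09 and 9.15 in set A. Its organ difference was -1.93 (SE 0.28, adjusted p = 0.00046), with a leaf effect of 0.016. In all 3 genes the third rdr6-15 inflorescence array was the highest of its group and still lay below every set A array.

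Of 21 measured genes of a wider pollen list, 7 were called lower and 0 higher, and 17 had an organ difference below 0. Of all probe sets, 1.55% were called lower and 46.4% were below 0. The list was put together with these values known, and its median of -0.20 stands beside 0.018 over all probe sets. The other called members were APPB1 with -2.16, RALFL26 with -1.66, PLIM2b with -0.85, and ACT12, a reproductive actin, with -0.69. Of the members that were not called, SETH2, SETH3 and NET2D had organ differences of -0.058, -0.096 and -0.11. The mean level of the list was 6.03 to 6.19 in rdr6-15 inflorescence, against 6.71 to 6.82 in set A and 6.80 to 6.96 in set B. In leaf it was 5.61 to 5.74 in rdr6-15, against 5.68 to 5.70 in Col-0. Of the shorter pollen list, with 2 members measured, ANX2 had an organ difference of -0.79 (adjusted p = 0.177) and ANX1, its close relative among receptor kinases, 0.082.

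Further genes called lower were likewise low in leaf. AT5G39880 had 6.63, 6.42 and 6.51 in rdr6-15 inflorescence, against 9.25, 9.32 and 9.38 in set A, and its organ difference was -2.76 (SE 0.32, adjusted p = 5.63e-05). The organ differences of AT5G26700, AT3G26860, AT3G05610 and AT4G27580 were -2.49, -2.15, -2.13 and -2.11. GH9A4, of the endoglucanase family, had -2.14, and LCR72, a small cysteine-rich protein, -1.73. The organ difference of these 7 genes was called with set B as well, at values between -2.63 for AT5G39880 and -1.59 for LCR72.

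**Figure D2:**
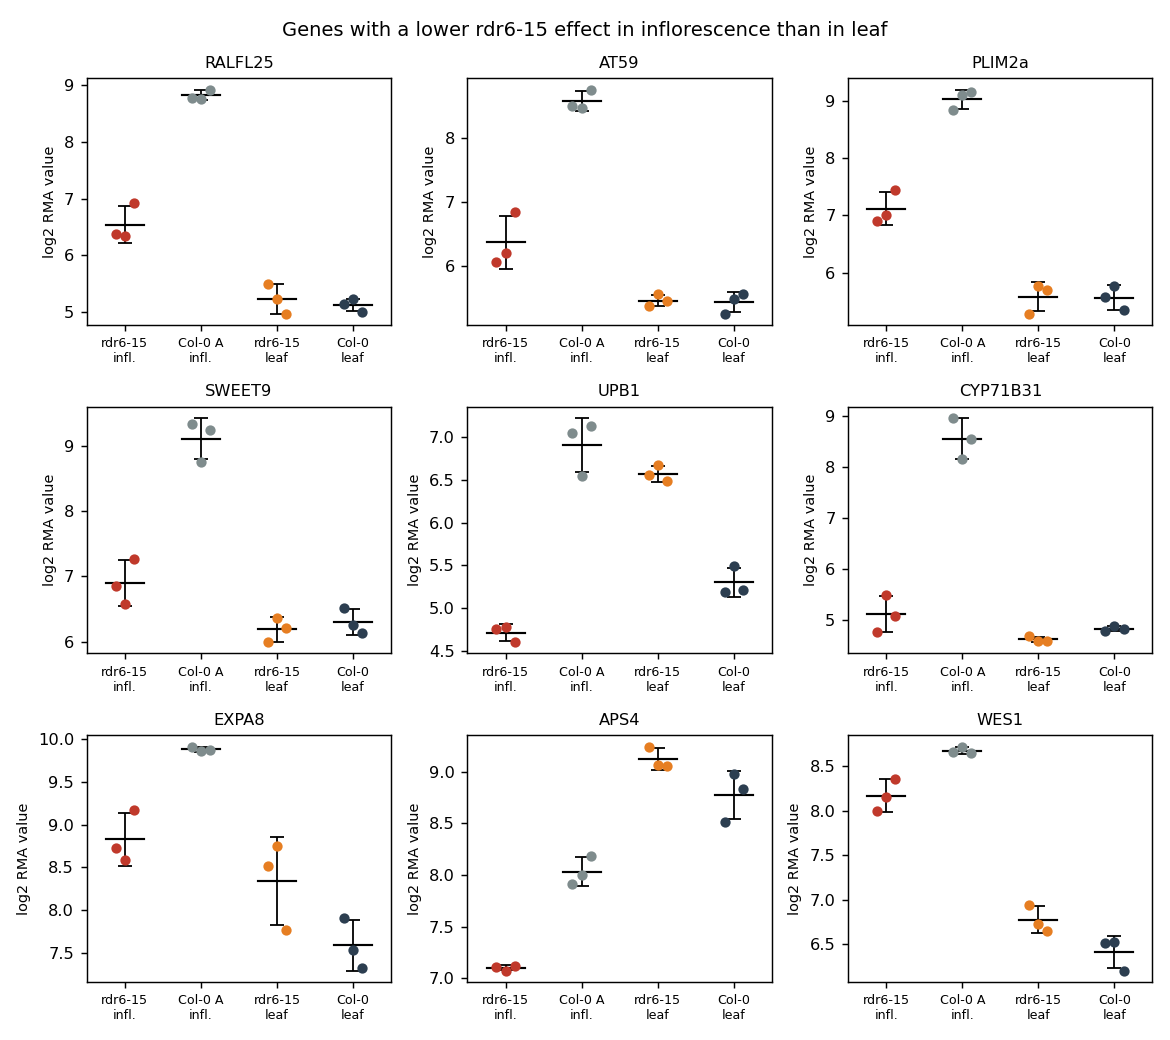
Each panel shows the log2 RMA value (y axis) of 1 gene on the 3 arrays of rdr6-15 inflorescence, Col-0 set A inflorescence, rdr6-15 leaf and Col-0 leaf. Points are arrays, and the line and bar are the mean and SD. RALFL25, AT59 and PLIM2a fall in rdr6-15 inflorescence and stay low in leaf, while UPB1 also has its 3 rdr6-15 leaf arrays above the 3 Col-0 leaf arrays.

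Of the SWEET family of sugar transporters, 3 of 14 measured members were called lower, against 1.55% of all probe sets. The list was written after the values were seen. SWEET9, the exporter of sucrose in nectaries, had 6.84, 6.58 and 7.26 in rdr6-15 inflorescence, against 9.32, 8.74 and 9.24 in set A. Its leaf values were 5.99, 6.36 and 6.20 in rdr6-15, against 6.51, 6.25 and 6.13 in Col-0. The organ difference was -2.10 (SE 0.32, adjusted p = 0.000666), while with set B it was -0.78 and not called (adjusted p = 0.0606), and without the third set B array -1.04 and called (adjusted p = 0.00836). SWEET8, which is needed for the pollen wall, had -1.21 (SE 0.27, adjusted p = 0.0143) and was at 9.35, 9.64 and 9.51 in rdr6-15 inflorescence, against 10.01, 10.23 and 10.26 in set A. With set B it had -1.86. SWEET1, a glucose transporter, had -0.76 (adjusted p = 0.0386), a call lost in 9 of 12 fits that each left out 1 array, with adjusted p up to 0.106, and -1.19 with set B. Of the 14 measured members 0 were called higher, and the median of the organ difference was -0.41, beside 0.018 over all probe sets. SWEET13, at -0.92, was not called (adjusted p = 0.158).

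UPB1, a bHLH factor known for repressing peroxidase genes in roots, had the largest negative organ difference of the named genes. It had 4.75, 4.78 and 4.60 in rdr6-15 inflorescence, against 7.05, 6.54 and 7.13 in set A, and 6.56, 6.67 and 6.48 in rdr6-15 leaf, against 5.19, 5.49 and 5.21 in Col-0 leaf. Neither pair of groups overlapped, and the estimates were of opposite sign, -2.20 in inflorescence (adjusted p = 0.000162) and 1.27 in leaf (adjusted p = 0.252). The organ difference was -3.47 (SE 0.47, adjusted p = 0.000232), and -5.89 with set B.

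Other called lower genes belonged to metabolism and the cell wall. EXPA8, an expansin, had 8.73, 8.58 and 9.18 in rdr6-15 inflorescence, against 9.91, 9.86 and 9.87 in set A, and 8.52, 8.75 and 7.76 in rdr6-15 leaf, against 7.90, 7.53 and 7.33 in Col-0 leaf. Its organ difference was -1.81 (SE 0.35, adjusted p = 0.00522), and -1.03 with set B (adjusted p = 0.0243). APS4, an ATP sulfurylase gene and a target of microRNA395, had 7.11, 7.07 and 7.12 in rdr6-15 inflorescence, against 7.91, 8.00 and 8.19 in set A, and its organ difference was -1.28 (SE 0.27, adjusted p = 0.00864). WES1, which conjugates auxin to amino acids, had -0.86 (SE 0.15, adjusted p = 0.0018). GSTU18, a glutathione transferase, had -0.83, and -1.25 with set B, and scpl38, a serine carboxypeptidase-like gene, -1.39. ARPN, a plantacyanin gene and a target of microRNA408, had -0.92 (adjusted p = 0.0419), a call lost in 9 of 12 fits that each left out 1 array, with adjusted p up to 0.12, and with set B its value was 0.044.

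CYP71B31 and AT1G72290 differed by the Col-0 set used. CYP71B31, a cytochrome P450, had 4.77, 5.48 and 5.07 in rdr6-15 inflorescence, against 8.96, 8.15 and 8.55 in set A, with an organ difference of -3.24 (SE 0.41, adjusted p = 9.67e-05). Set B averaged 5.02, and the organ difference with it was 0.29. AT1G72290 had -2.79 with set A (SE 0.31, adjusted p = 4.07e-05) and 0.19 with set B. With dcl4-2 in place of Col-0 in both organs, CYP71B31 had -4.53 and AT1G72290 -2.21.

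Among the genes whose rdr6-15 effect was called higher in inflorescence than in leaf, 4 belonged to the synthesis or breakdown of chlorophyll. PORB, a protochlorophyllide reductase, had 11.56, 11.62 and 11.21 in rdr6-15 inflorescence, against 10.12, 10.41 and 10.30 in set A. In leaf it had 9.72, 10.14 and 10.31 in rdr6-15, against 10.06, 10.15 and 9.90 in Col-0, with overlapping groups. The organ difference was 1.16 (SE 0.27, adjusted p = 0.021), a call lost in 5 of 12 fits that each left out 1 array, with adjusted p up to 0.0694. CHLI2, a subunit of magnesium chelatase, had 9.59, 9.66 and 9.44 in rdr6-15 inflorescence, against 8.93, 9.12 and 8.91 in set A, and its organ difference was 0.83 (SE 0.17, adjusted p = 0.00718), and 2.04 with set B. GSA1, which makes aminolevulinate, had 0.65 (adjusted p = 0.0202) and NOL, a chlorophyll b reductase that acts in breakdown, 0.63 (adjusted p = 0.0482). Leaving out 1 array lost the call of GSA1 in 5 of 12 fits and that of NOL in 10, with adjusted p up to 0.0709 and 0.125. With set B the value of GSA1 was 1.26, and that of NOL was 0.21 and not called (adjusted p = 0.371). Of 8 measured members of this list, chosen with these values known, 4 were called higher and 0 lower, all 8 were above 0 and the median was 0.66. Over all probe sets 0.901% were called higher, 12195 of 22746 were above 0 and the median was 0.018. The mean level of the list was 10.45 to 10.62 in rdr6-15 inflorescence, against 9.97 to 10.11 in set A. In leaf it was 10.40 to 10.50 in rdr6-15, against 10.50 to 10.68 in Col-0.

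CIL and MAP1C were among the 12 largest positive organ differences. CIL, related to the import regulator CIA2, had 6.63, 6.79 and 6.67 in rdr6-15 inflorescence, against 5.55, 5.74 and 5.80 in set A, and its organ difference was 1.14 (SE 0.14, adjusted p = 9.24e-05), and 1.73 with set B. MAP1C, a methionine aminopeptidase, had 8.91, 9.21 and 9.07 in rdr6-15 inflorescence, against 8.15, 8.10 and 8.17 in set A, with 1.18 (SE 0.17, adjusted p = 0.000324). PAM68, a factor of photosystem II assembly, had 0.59 (adjusted p = 0.013) with set A and -0.21 with set B, and its call was lost without the first rdr6-15 inflorescence array (adjusted p = 0.0526). Of 19 measured chloroplast assembly and RNA factors PAM68 was the 1 called, and the median was 0.30. Of 11 nuclear photosynthesis genes 2 were called higher, PORB and CHLI2, and the median was 0.21. Over all probe sets 0.901% were called higher and the median was 0.018. HEME1 and HEME2 were not called (0.73 and 0.68, adjusted p = 0.241 and 0.111).

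**Figure D3:**
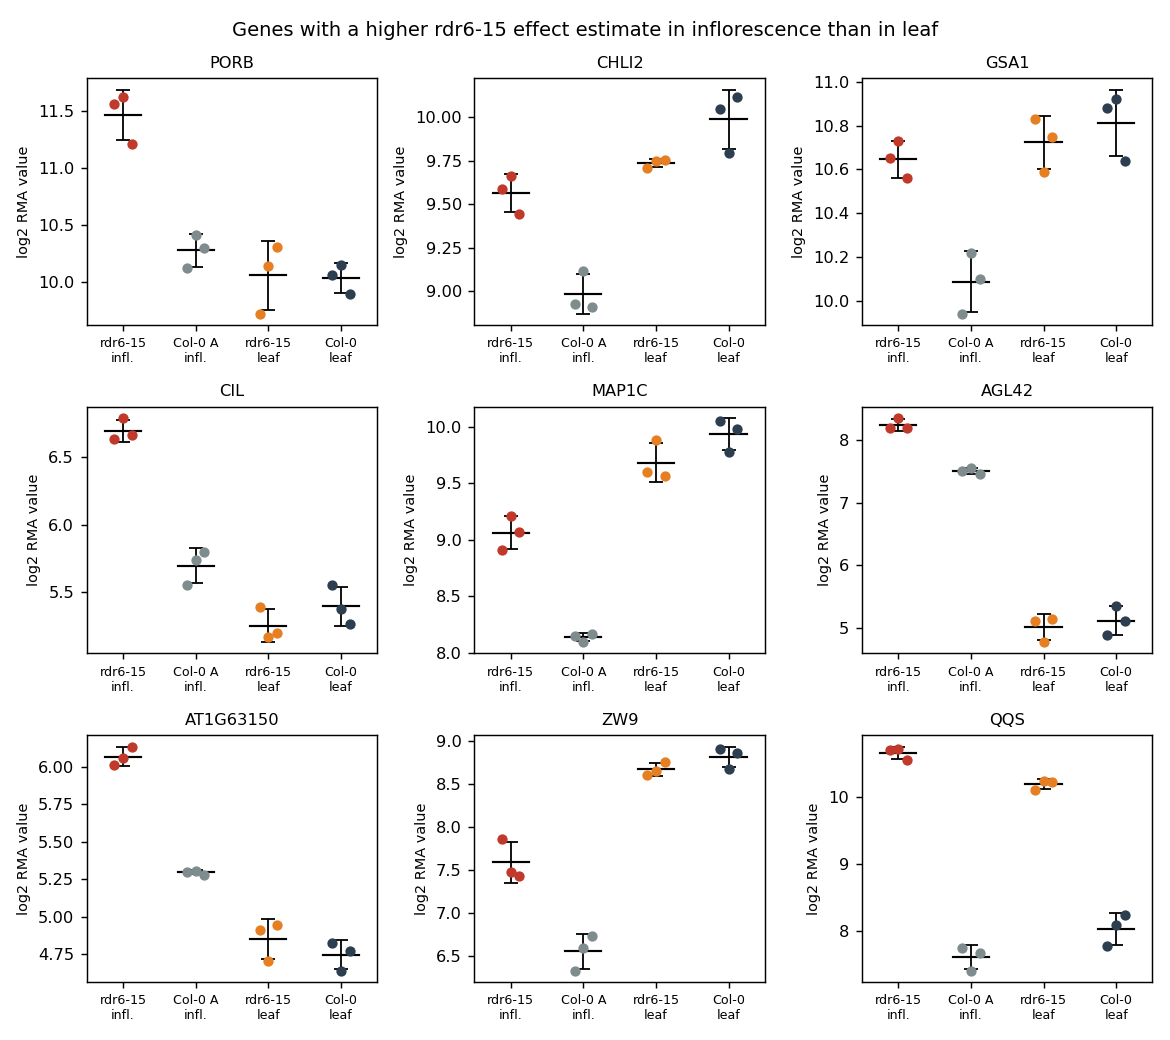
Each panel shows the log2 RMA value (y axis) of 1 gene on the 3 arrays of rdr6-15 inflorescence, Col-0 set A inflorescence, rdr6-15 leaf and Col-0 leaf, with points for arrays and a line and bar for the mean and SD. PORB, CHLI2, GSA1, CIL and MAP1C rise in rdr6-15 inflorescence, and QQS is above Col-0 in both organs.

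The largest positive organ differences were of genes without a role in the annotation used here. AT2G39400 had 1.65 (SE 0.38, adjusted p = 0.0191) and was at 7.16, 6.73 and 6.39 in rdr6-15 inflorescence, against 5.46, 5.43 and 5.34 in set A. With set B it had -1.08, and its call was lost in 4 of 12 fits that each left out 1 array, with adjusted p up to 0.0695. AT4G17470 had 1.64 (adjusted p = 0.025), a call lost in 6 of 12 fits with adjusted p up to 0.0866, and AT4G26370 1.26 (SE 0.17, adjusted p = 0.000256). AT5G45700, AT4G36010 and AT4G11190 had 1.21, 1.19 and 1.15. With set B AT4G26370 had 2.47, AT5G45700 3.06, AT4G36010 1.91 and AT4G11190 2.37. AT5G55220 had 1.10 (adjusted p = 0.0308), a call lost in 9 of 12 fits with adjusted p up to 0.0872, and ATPMEPCRB, a pectin methylesterase, 1.06. ZW9 had 1.18 with set A (adjusted p = 0.00214) and -2.55 with set B, whose mean of 10.29 lay above every set A and rdr6-15 inflorescence array.

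AGL42, a MADS-box gene, had 8.20, 8.35 and 8.19 in rdr6-15 inflorescence, against 7.50, 7.56 and 7.46 in set A, and its organ difference was 0.84 (SE 0.19, adjusted p = 0.0149). The call was lost without the second rdr6-15 inflorescence array or the second rdr6-15 leaf array (adjusted p up to 0.0546), and with set B the value was 0.18. EXPA16 had 0.72 (adjusted p = 0.0433), a call lost in 9 of 12 fits with adjusted p up to 0.14.

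Among the targets of trans-acting siRNAs, the list holds 14 measured pentatricopeptide repeat genes. AT1G63150 was at 6.01, 6.06 and 6.13 in rdr6-15 inflorescence, against 5.30, 5.31 and 5.28 in set A. In leaf it was at 4.91, 4.70 and 4.94 in rdr6-15, against 4.83, 4.64 and 4.77 in Col-0. The inflorescence groups were apart and the leaf groups overlapped, and the organ difference was 0.67 (SE 0.12, adjusted p = 0.00269), and 1.07 with set B.

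AT1G12775 rose in leaf, at 5.91, 5.99 and 6.55 in rdr6-15, against 5.14, 5.15 and 5.32 in Col-0 (effect 0.95, adjusted p = 0.0213), a call not made in a fit of the 12 leaf arrays alone (adjusted p = 0.485). In inflorescence it was at 5.67, 5.73 and 5.70 in rdr6-15, against 5.38, 4.98 and 5.26 in set A, an estimate of 0.49 (adjusted p = 0.096). Its organ difference of -0.45 was not called (adjusted p = 0.429, interval -0.95 to 0.036). Over the list, 1 was called higher and 0 lower for the organ difference, 10 were above 0, and the median was 0.10. Over all probe sets 0.901% were called higher and the median was 0.018. The probe sets of this family can share sequence between relatives, so single members are uncertain.

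QQS, an Arabidopsis gene tied to starch content, rose in both organs. It was at 10.71, 10.73 and 10.56 in rdr6-15 inflorescence, against 7.75, 7.41 and 7.67 in set A, and at 10.11, 10.25 and 10.23 in rdr6-15 leaf, against 7.77, 8.09 and 8.24 in Col-0 leaf. The effect was 3.06 in inflorescence (SE 0.18, adjusted p = 1.79e-09) and 2.16 in leaf (adjusted p = 1.53e-06, and 0.00115 in the 12 leaf arrays alone). The organ difference of 0.89 (SE 0.26, interval 0.36 to 1.43) missed the threshold after adjustment (adjusted p = 0.071). It passed without the 3 arrays that stood apart (adjusted p = 0.0237) and with set B (0.82, adjusted p = 0.0146).

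Of the named genes called for the organ difference, those with a called leaf effect were AT5G52740 and AT2G20625. AT5G52740 was at 8.29, 8.79 and 8.95 in rdr6-15 leaf, against 7.80, 7.99 and 7.91 in Col-0 leaf, and at 4.76, 4.71 and 4.77 in rdr6-15 inflorescence, against 4.75, 4.74 and 4.73 in set A. The organ difference was -0.77 (SE 0.15, adjusted p = 0.00566). AT2G20625 was at 5.31, 5.30 and 5.07 in rdr6-15 leaf, against 5.89, 5.81 and 6.63 in Col-0 leaf, and averaged 4.55 in set A. Its organ difference was 0.86 (adjusted p = 0.0313), a call lost in 7 of 12 fits with adjusted p up to 0.0858. The dcl4-2 organ difference, without the second dcl4-2 inflorescence array, was 1.25 for AT2G20625 and 0.021 for AT5G52740. With dcl4-2 in place of Col-0, again without that array, AT2G20625 had -0.40 and was not called (limma adjusted p = 0.405). AT5G52740 had -0.79 and was called (adjusted p = 0.006). Both genes were near the lowest values of the array in inflorescence, where a fall could not have been seen. In a fit of the 12 leaf arrays alone, neither leaf effect was called (adjusted p = 0.496 and 0.934).

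Autophagy genes were not called, with 4 at an unadjusted p under 0.05. All 10 measured had an organ difference below 0, against 46.4% of all probe sets, with a median of -0.44 and values between -0.70 and -0.18. The lowest p among them was of ATG8B, at 8.44, 8.45 and 8.74 in rdr6-15 inflorescence, against 8.73, 8.87 and 8.79 in set A, and 6.49, 6.92 and 7.00 in rdr6-15 leaf, against 6.03, 6.44 and 6.67 in Col-0 leaf (-0.67, adjusted p = 0.136). With set B all 10 were called lower, with a median of -1.85, where 17.5% of all probe sets were called lower. The mean level of the list was 8.84 to 8.94 in rdr6-15 inflorescence, 9.01 to 9.14 in set A and 10.50 to 10.64 in set B. The values with set B thus also hold the difference between the Col-0 sets. The 69 plastid-encoded transcripts had 0 calls, with 5 at an unadjusted p under 0.05, 50 below 0 and a median of -0.26. Their median was 0.041 without the second rdr6-15 leaf array, on which matK was at 9.90, against 8.21 and 7.75 on the other 2, and 0.47 with set B. All 7 jasmonate genes were below 0 with 0 calls and a median of -0.51, and THI2.1 among them had -0.80 (adjusted p = 0.329). The dcl4-2 organ difference, against the same Col-0 arrays, was below 0 for 8 of the 10 autophagy genes, with a median of -0.12. It was below 0 for 56 of the 69 plastid-encoded transcripts (median -0.26) and 1 of the 7 jasmonate genes (median 0.39).

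**Figure D4:**
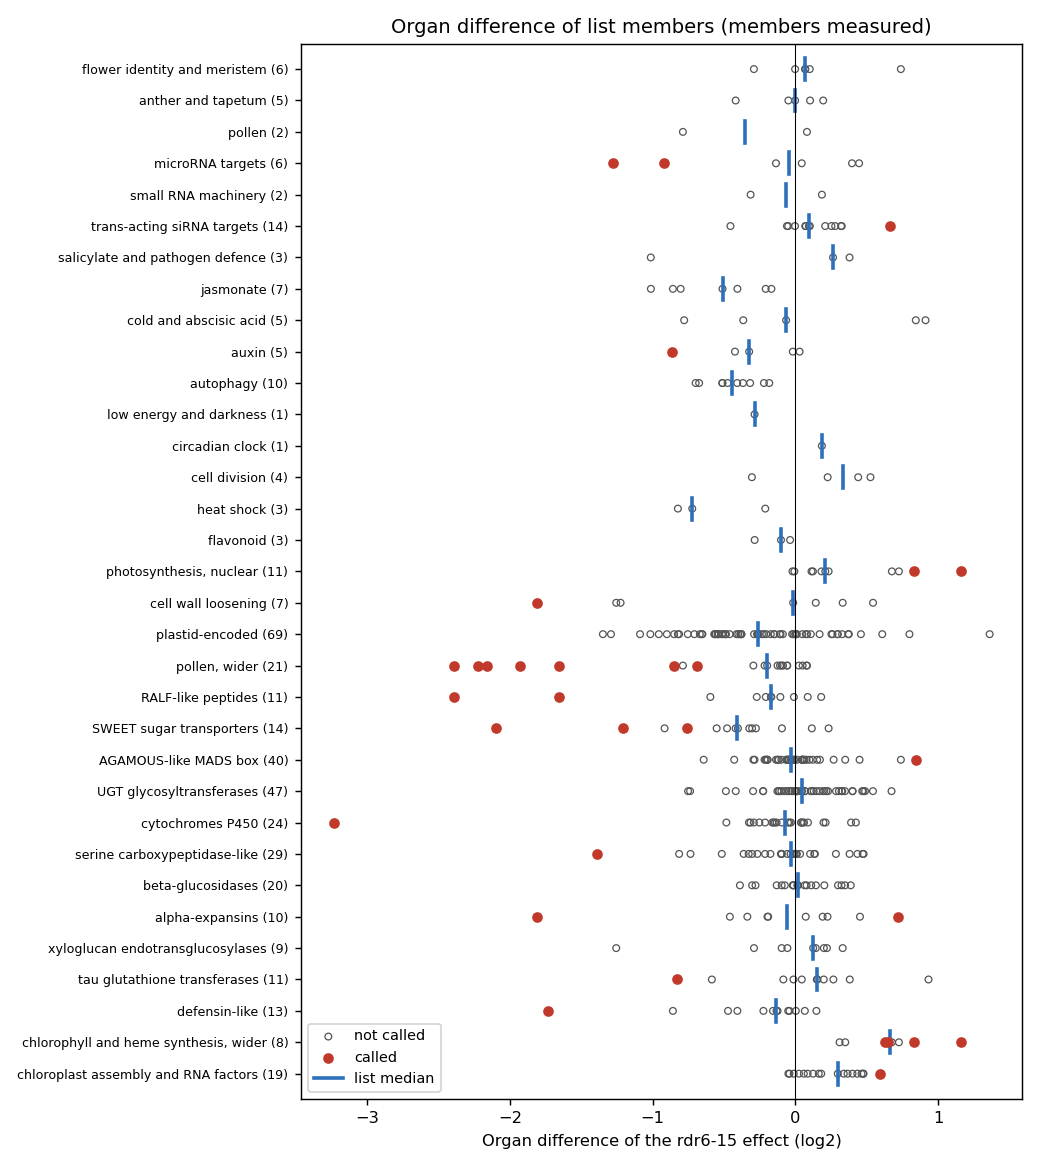
The organ difference (x axis, log2) of each measured member is shown for the 33 lists, with the number measured in brackets. Filled points are called, open points are not, and the blue line is the list median. Called members of the wider pollen list and of the SWEET family lie below 0, and those of the wider chlorophyll and heme list above 0.

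The remaining lists held at most 2 calls each, beside 1.55% of all probe sets called lower and 0.901% called higher. The microRNA target list had 2 of 6 called lower (APS4 and ARPN) and a median of -0.045. The auxin list had 1 of 5 called lower (WES1), with a median of -0.32, and the cell wall list 1 of 7 (EXPA8), with -0.015. None was called among 6 flower identity and meristem genes (median 0.069), 5 anther and tapetum genes (-0.0013), 5 cold and abscisic acid genes (-0.065), 4 cell division genes (0.33), 3 heat shock genes (-0.72), 3 flavonoid genes (-0.10), 3 salicylate and pathogen defence genes (0.26) and the 2 small RNA machinery genes AGO7 (-0.31) and SE (0.19). The single genes of the low energy and clock lists, AKINBETA1 and GI, had -0.29 and 0.19. At an unadjusted p under 0.05 there was 1 of the flower genes, AGL24 (0.74), 1 of the cell division genes, AUR2 (0.53), 2 of the cold genes, 1 of the heat shock genes and 1 of the salicylate genes.

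Other gene families, written as lists after the values were seen, held at most 2 calls each. Of all probe sets, 1.55% were called lower and 0.901% higher. Of 40 AGAMOUS-like genes 1 was called higher (median -0.028), of 24 cytochromes P450 1 was called lower (-0.073), and of 29 serine carboxypeptidase-like genes 1 was called lower (-0.034). Of 11 RALF-like genes 2 were called lower (-0.17), of 13 defensin-like genes 1 was called lower (-0.13), of 11 tau glutathione transferases 1 was called lower (0.15), and of 10 alpha-expansins 1 was called each way (-0.059). None was called of 47 UGT glycosyltransferases (0.046), 20 beta-glucosidases (0.016) and 9 xyloglucan endotransglucosylases (0.12), where 9, 1 and 1 had an unadjusted p under 0.05.

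The dependence on the Col-0 inflorescence control was measured directly. With set B in place of set A, 4778 probe sets (21%) were called higher and 3991 (17.5%) lower. Of the 205 called higher with set A, 176 (85.9%) were called higher with set B, 3.68% of that list, and of the 353 lower, 261 (73.9%) were, 6.54% of that list. The estimate kept its sign in 188 of 205 and 317 of 353. Without the third set B array 177 and 252 were called with the same sign, and of the 45 called named genes 0 turned sign and 1, SWEET9, changed its call against the fit with that array. RALFL25 had -2.70, AT59 -2.06, APPB1 -2.35 and PLIM2a -2.16 with set B, close to their values with set A. In contrast WES1 had -3.91 and AT5G55220 3.21.

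**Figure D5:**
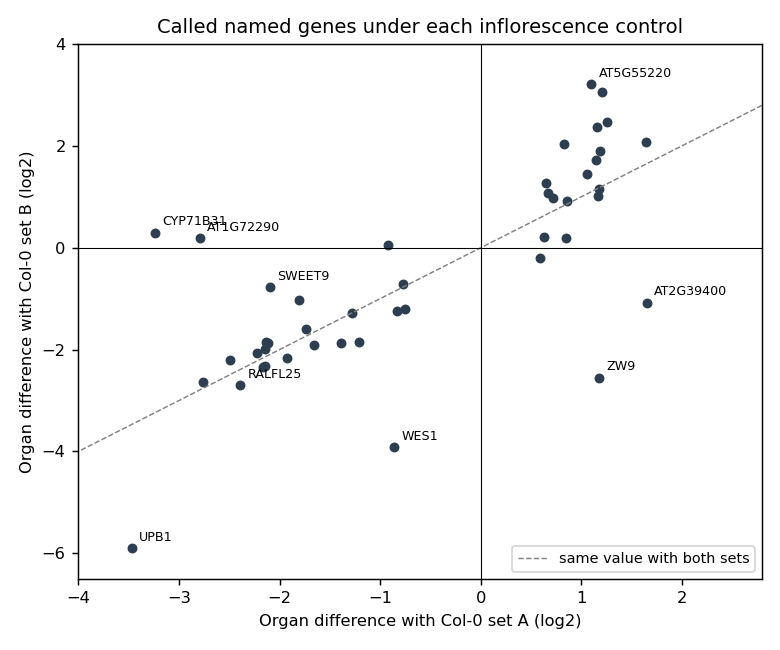
The organ difference with Col-0 set A (x axis, log2) is plotted against that with set B (y axis, log2) for the 45 named genes called with set A. RALFL25 lies near the line of equal values, while CYP71B31, AT1G72290, AT2G39400, ZW9, ARPN and PAM68 change sign.

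The organ difference of rdr6-15 was also set against that of dcl4-2, a mutant of the dicer that acts on RDR6 products. In the contrast of rdr6-15 minus dcl4-2 in inflorescence minus the same in leaf, the Col-0 arrays cancel. It was called for 693 probe sets higher (3.05%) and 841 lower (3.7%), together 6.74%. Of the 353 lower probe sets 308 were called in it with the same sign, and of the 205 higher ones 142, but both contrasts share the rdr6-15 arrays. For RALFL25 it was -2.79, for PLIM2a -2.23 and for SWEET9 -2.20, with adjusted p of 6.6e-05, 5.0e-05 and 0.00017 from limma. For PORB it was 1.22 (adjusted p = 0.00792) and for CHLI2 0.95 (adjusted p = 0.00117). It was -0.0077 for QQS, 0.24 for AT1G63150 and -0.083 for WES1, none of them called. Without the second dcl4-2 inflorescence array, it was 0.62 for NOL and -0.80 for SWEET1, both called. GSA1 then had 0.43, SWEET8 -0.77, ATPMEPCRB 0.57 and AT4G36010 0.60, none of them called (limma adjusted p of 0.12, 0.147, 0.183 and 0.272). The dcl4-2 organ difference itself, against the same Col-0 arrays, was called for 51 probe sets (0.224%), 9 higher (0.0396%) and 42 lower (0.185%), and stood at 0.40 for RALFL25, -0.053 for PORB and 0.90 for QQS. Without the second dcl4-2 inflorescence array it was called for 2 probe sets higher and 18 lower, and stood at 0.31 for RALFL25, -0.043 for PORB and 0.77 for QQS. Without that array the contrast of rdr6-15 minus dcl4-2 was called for 590 higher and 652 lower, 279 of the 353 lower and 138 of the 205 higher probe sets were called in it with the same sign, and RALFL25 had -2.70, PLIM2a -2.16, SWEET9 -2.39, PORB 1.21 and CHLI2 1.08, each called. Of the called named genes that turned sign with set B, CYP71B31 had -4.67, AT1G72290 -2.21, AT2G39400 1.93, ZW9 1.96 and PAM68 0.61, each called. ARPN had -0.67 and was not called (limma adjusted p = 0.156).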

How the data were processed

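RNA levels were measured on Affymetrix ATH1 arrays, 27 in 9 groups of 3. The deposited values are on a log2 scale, with 1 value for each probe set on each array, and the authors used RMA, as the submitters' processing notes name it. Its version is not given in the sources used here, nor is a joint or separate normalization of the organs. RMA compresses differences of dim probe sets and equalizes arrays, so it hides a shift of all transcripts. The number of arrays limits the precision.

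Samples were grouped from their labels. The series' design text calls the arrays of a group biological replicates. The 64 AFFX probe sets were left out, which leaves 22746, with no filter on signal. GEO's platform annotation gives 1 symbol for 13513 of these, several for 503 and none for 8730, and 13436 matched a locus of RefSeq's TAIR10.1 table. A gene is represented by its probe set of highest mean, which gives 13355 genes. Probe sets with several symbols name no gene here.

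Means of the 9 groups were fitted with limma 3.58.1 in R 4.3.3 (lmFit, contrasts.fit, eBayes) to all 27 arrays, and p-values were Benjamini-Hochberg adjusted over the 22746 probe sets and called under 0.05. Intervals are at 95%. The fit was tested on simulated data. Named are the 12 largest called organ differences each way, called genes with a called leaf effect, QQS, and up to 4 members of each list with the smallest p. Genes outside this rule, such as members of the wider pollen list beyond the first 4, were named after their values were seen. The comparison, genes and lists were chosen with earlier results of these data known, and 14 of the 33 lists, families taken from the annotation's symbols, were written after the values were seen. The cyclophilins CYP59 and CYP71 and the mitochondrial factors OTP43 and OTP87 were then left out of 2 of these families by their identity. Of 449 entries of the lists written with symbols and loci, 95 had a probe set annotated with that gene alone and count as measured. Another 7 were dropped because symbol and locus did not pair. The rest may have probe sets with several symbols or none, which were not used for lists. Lists were described by counts and medians, with no test.

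Alternatives were the 12 arrays alone, an intensity trend with robust prior, array weights, median centring, quantile normalization, no dim probe sets, Col-0 set B, both sets pooled, and each of the 12 arrays left out. A spread per organ, fits of 1 organ alone and fits without inflorescence arrays of high 3′ minus 5′ signal were added after seeing the data.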

Additional observations from a re-analysis of the deposited data

Results flagged for a closer look

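The rdr6-15 effect differed between the organs, by limma's test of the interaction over all 27 arrays, for 45 of the genes picked by the naming rule. In 25 of them the effect was lower in inflorescence than in leaf. The organ differences were -3.47 for UPB1, -3.24 for CYP71B31, -2.79 for AT1G72290, -2.76 for AT5G39880, -2.49 for AT5G26700, -2.39 for RALFL25, -2.22 for AT59, -2.16 for APPB1, -2.15 for AT3G26860, -2.14 for GH9A4, -2.13 for AT3G05610, -2.11 for AT4G27580 and -2.10 for SWEET9 among the genes past -2. Between -2 and 0 they were -1.93 for PLIM2a, -1.81 for EXPA8, -1.73 for LCR72, -1.66 for RALFL26, -1.39 for scpl38, -1.28 for APS4, -1.21 for SWEET8, -0.92 for ARPN, -0.86 for WES1, -0.83 for GSTU18, -0.77 for AT5G52740 and -0.76 for SWEET1.

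In the other 20 genes the effect was higher in inflorescence. The organ differences were 0.59 for PAM68, 0.63 for NOL, 0.65 for GSA1, 0.67 for AT1G63150, 0.72 for EXPA16, 0.83 for CHLI2, 0.84 for AGL42, 0.86 for AT2G20625, 1.06 for ATPMEPCRB, 1.10 for AT5G55220, 1.14 for CIL, 1.15 for AT4G11190, 1.16 for PORB, 1.18 for ZW9, 1.18 for MAP1C, 1.19 for AT4G36010, 1.21 for AT5G45700, 1.26 for AT4G26370, 1.64 for AT4G17470 and 1.65 for AT2G39400. Percent called over all probe sets is 2.45, and named genes were chosen partly for the size of this difference. Over all 13355 genes with a representing probe set, 107 were called higher and 190 lower.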

How the results depend on the processing

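No paired analysis was possible because the labels give no replicate numbers that groups share. The counts of called probe sets moved with the estimate of the spread. With the 12 arrays alone the organ difference was called for 379 higher and 572 lower, inflorescence for 821 higher and leaf for 4 lower. Array weights gave 468 higher and 577 lower for the organ difference, 3269 higher and 2414 lower in inflorescence, 4 lower in leaf and 1059 higher for rdr6-15 minus dcl4-2. A spread per organ gave 131 higher for the organ difference, 1155 higher and 1167 lower in inflorescence and 4 lower in leaf. The 15 inflorescence arrays alone gave 948 higher in inflorescence, and the 12 leaf arrays alone 3 higher and 1 lower in leaf. The leaf count of lower calls was 16 after quantile normalization and 2 without the dimmest 25% of probe sets. With set B, 4778 were called higher and 3991 lower for the organ difference and 5813 and 4891 in inflorescence, and without the third set B array 4711 and 3773, and 5601 and 4540, and with both sets pooled 3000 and 2333, and 4513 and 3495. Without the 3 inflorescence arrays that stood apart, 353 were called higher for the organ difference and 777 higher in inflorescence. Leaving out 1 array gave 108 to 244 higher and 239 to 374 lower for the organ difference, 233 to 312 higher and 474 to 623 lower in inflorescence, and 9 to 27 higher and 3 to 17 lower in leaf. In inflorescence each of the 6 arrays left out brought the higher count to 312 or less, and the lower count was 482 without the second rdr6-15 array and 474 without the third set A array. In leaf, higher calls were 27 without the first rdr6-15 array, and lower calls were 17 without the first rdr6-15 array, 13 without the first Col-0 array, 3 without the third rdr6-15 or the third Col-0 array and 4 without the second Col-0 array. All 205 higher and 353 lower estimates kept their sign in each fit that left out 1 array.

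With set B, list medians were -0.054 for flower identity, 0.40 for anther and tapetum, 0.22 for trans-acting siRNA targets, -0.79 for salicylate, -0.90 for jasmonate, 0.37 for cold, -1.85 for autophagy, 2.01 for cell division, 0.092 for flavonoid, 0.71 for nuclear photosynthesis, -1.03 for cell wall, 0.47 for plastid-encoded, -0.34 for RALF-like, -0.15 for cytochromes P450, 0.36 for alpha-expansins, -0.12 for xyloglucan endotransglucosylases, 0.038 for tau glutathione transferases, 1.02 for chlorophyll and heme and 0.51 for chloroplast factors. With both sets pooled they were 0.23 for anther and tapetum, 0.17 for trans-acting siRNA targets, -0.26 for salicylate, 0.54 for cold, -1.10 for autophagy, 1.13 for cell division, 0.63 for nuclear photosynthesis, -0.71 for cell wall, 0.094 for plastid-encoded, -0.22 for RALF-like, -0.15 for cytochromes P450, 0.34 for alpha-expansins, -0.023 for xyloglucan endotransglucosylases, 0.063 for tau glutathione transferases and 0.81 for chlorophyll and heme. Without the dimmest 25% they were 0.25 for trans-acting siRNA targets, -0.44 for wider pollen, -0.22 for RALF-like, 0.078 for AGAMOUS-like, -0.14 for cytochromes P450, 0.065 for beta-glucosidases, -0.20 for alpha-expansins and -0.41 for defensin-like, where fewer genes were used. Array weights gave -0.23 for RALF-like, -0.11 for cytochromes P450 and 0.74 for chlorophyll and heme.

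Leaving out 1 array moved the medians over -0.087 to 0.26 for anther and tapetum, -0.011 to 0.062 for beta-glucosidases, -0.25 to -0.11 for RALF-like, -0.12 to -0.042 for cytochromes P450, -0.20 to -0.072 for defensin-like, 0.045 to 0.19 for tau glutathione transferases, -0.41 to 0.26 for cold, -0.51 to -0.0075 for auxin, 0.18 to 0.37 for chloroplast factors, -0.52 to 0.041 for plastid-encoded, -0.23 to -0.11 for wider pollen, -0.49 to -0.29 for SWEET, -0.0082 to 0.14 for xyloglucan endotransglucosylases, -0.88 to -0.44 for heat shock, -0.33 to 0.061 for cell wall, -0.15 to 0.024 for alpha-expansins, -0.12 to 0.036 for microRNA targets, -0.17 to 0.47 for salicylate and 0.60 to 0.75 for chlorophyll and heme. It also turned the sign of AMS (-0.37 to 0.36), GH3.1 (-0.0092 to 0.064), SPL (-0.087 to 0.28), UF3GT (-0.11 to 0.085), SPT (-0.012 to 0.32), DFR (-0.23 to 0.0098), GRX480 (-0.17 to 0.95) and IAA29 (-0.62 to 0.037), none of which was called.

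With set B the organ difference turned sign for AT2G39400 (-1.08), ZW9 (-2.55), CYP71B31 (0.29), AT1G72290 (0.19), ARPN (0.044) and PAM68 (-0.21), which were called with set A. Among genes not called with set A it turned for SPT (-1.09), EMS1 (0.40), AMS (0.55), ANX1 (-0.047), AGO7 (0.35), SAG101 (-0.79), GRX480 (-0.19), THI2.1 (2.22), GI (-0.18), PRL (2.87), BAN (0.092), DFR (0.25), UF3GT (0.051), EXO (-1.96), atpI (0.20), ndhD (1.36), matK (1.81), UGT85A3 (0.23), BGLU16 (-0.76), BGLU40 (0.11), EXPA24 (0.033), CYP71B22 (-0.12) and XTH16 (-0.17). With both sets pooled it turned for ZW9 (-0.69), SPT (-0.49), AMS (0.25), AGO7 (0.016), SAG101 (-0.26), THI2.1 (0.71), PRL (1.28), DFR (0.075), UF3GT (0.0073), EXO (-0.71), ndhD (0.034), matK (0.23) and BGLU16 (-0.22). Array weights turned UF3GT (0.056). The cause of these changes was not tested.

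The median residual SD was 0.172 over leaf arrays and 0.122 over inflorescence arrays. Arrays have no read depth, and transcripts near the lowest leaf values set no lower bound on a fall in leaf.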
